A study of Mus musculus with 2 samples.

Results

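The Siglec genes Siglec1, Siglech, Siglece, Siglecf, Cd33 and Cd22 were followed across the cells of sorted mouse brain. They were taken from 2 single-cell RNA libraries by gene symbol, and all 6 members were found among the 26033 genes that both libraries list. Each was described by its level and by the share of cells with a molecule of it, in microglia, in border-associated macrophages (BAMs, the macrophages of the meninges, vessel spaces and choroid plexus), in blood-derived cells and in the vascular and glial cells sorted beside them. The mutant library came from adult Mrc1Cre:Csf1rfl/fl mice, whose Cre recombinase is driven by the mannose receptor gene Mrc1 and recombines loxP sites placed in Csf1r, the receptor for colony-stimulating factor 1. The control library came from adult Csf1rfl/fl mice, which carry the same loxP sites without the Cre. Per the labels, whole brain was sorted for mural cells and fibroblasts by CD13 or CD140a, endothelial cells by CD31, astrocytes by ACSA-2, and BAMs and microglia by CD11b and F4/80. Each genotype had 1 library, the labels do not say how many animals went into it, and so no test between genotypes exists. All intervals below are 95% intervals that cover counting error, not the spread between animals.

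Siglecs are cell surface lectins of the immunoglobulin superfamily that bind sialic acids, the acidic sugars that cap the glycans of most vertebrate cells. Most carry tyrosine motifs in their cytoplasmic tail that recruit the phosphatases SHP-1 and SHP-2 and dampen activation, while a few pair with an adaptor that activates the kinase Syk. In the brain, microglia, which need CSF1R signalling to survive, are known to express several of them, and Siglec1 is a marker of macrophages at the brain's borders. Siglec1, also called sialoadhesin or CD169, has a long extracellular part that reaches sialic acids on other cells and has no inhibitory motif in its tail. Siglech is a mouse receptor that pairs with the adaptor DAP12, the product of Tyrobp, and marks microglia and plasmacytoid dendritic cells. Siglece and Siglecf are inhibitory receptors, known in the mouse from neutrophils and macrophages for Siglece and from eosinophils and alveolar macrophages for Siglecf. Cd33 is inhibitory in human myeloid cells, where it is linked to Alzheimer's disease risk. Cd22 is the inhibitory co-receptor of B cells and has also been described in aged mouse microglia.

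On GRCm38, Siglec1 (ENSMUSG00000027322) lies at chr2:131069220-131086765 on the minus strand. The other members lie on chromosome 7. Siglecf (ENSMUSG00000039013) spans chr7:43351341-43359531 on the plus strand, Cd33 (ENSMUSG00000004609) chr7:43524216-43544428 on the minus strand and Siglece (ENSMUSG00000030474) chr7:43651070-43660161 on the minus strand. Cd22 (ENSMUSG00000030577) spans chr7:30865402-30880342 on the minus strand, and Siglech (ENSMUSG00000051504) chr7:55768178-55778925 on the plus strand. All 6 are annotated as protein-coding. The libraries read each molecule from its 3′ end, and no run of 31 bases in the last 500 bases of any member's transcripts was shared with another Siglec gene. Of the Siglec1 runs, 8.37% were shared with a gene outside the family, and at most 2.59% of those of any other member.

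Siglecf and Cd33 had the most similar start regions of the family. RefSeq start windows on GRCm38.p6, which run from 250 bases before a gene's start to 50 bases after it, were at hand for 5 of the 6 members, all but Siglec1. The windows of Siglecf and Cd33 aligned over 85 columns with 65 identical (76.5%), and the other 9 pairs of windows aligned over 13 to 33 columns. The part of that alignment before the first annotated exon base of Siglecf follows, because it holds a run of 16 identical bases, marked in capitals, and 28 of the 35 aligned positions were identical. The Siglecf stretch is chr7:43351306-43351340 on the plus strand, and the Cd33 stretch is chr7:43533301-43533336 on the minus strand, near a RefSeq start inside the longer GENCODE span of Cd33.
Siglecf: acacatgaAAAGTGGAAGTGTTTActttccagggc
Cd33: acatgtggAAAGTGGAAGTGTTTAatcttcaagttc

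The run holds the letters GGAAGT, the core that ETS family factors such as PU.1 of myeloid cells can bind. Searched on both strands, GGAAGT occurred in the windows of Siglech, Siglecf and Cd33 and in 23.8% of all 32851 start windows. The Siglech window before its first exon, chr7:55767934-55768177 on the plus strand, is shown because Siglech is the member most used to mark microglia. Capitals mark GGAAGT read on the other strand.
Siglech: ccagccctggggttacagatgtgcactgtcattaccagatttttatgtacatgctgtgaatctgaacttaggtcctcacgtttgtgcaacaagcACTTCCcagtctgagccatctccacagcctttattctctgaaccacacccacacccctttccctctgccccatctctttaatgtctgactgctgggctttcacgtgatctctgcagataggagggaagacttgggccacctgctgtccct

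The deposited files held 8735 cell barcodes in the mutant library and 8739 in the control library, with 82806348 and 85716531 unique molecular identifiers (UMIs, 1 per captured RNA molecule). After filters on genes, mitochondrial UMIs and doublets, 6123 mutant and 5609 control cells remained, with a median of 8808 and 8705 UMIs. Cell barcodes shared by both libraries numbered 17, of which 9 were among the kept cells. Cells were clustered without the Siglec genes and named from marker lists, as "X-like" because the names rest on RNA alone. Microglia-like cells numbered 2943 in the mutant and 2885 in the control library, and all 10 microglial markers were detected in them in both libraries. BAM-like cells numbered 105 in the mutant and 296 in the control library, 1.71% (1.41 to 2.07) and 5.28% (4.71 to 5.90) of kept cells, and all 10 BAM markers were detected in both. The targeted gene Csf1r was present in BAM-like cells at 1204 UMIs per 1000000 UMIs of the class (CPM; interval 1138 to 1273) in the mutant and 1476 CPM (1435 to 1517) in the control library. In microglia-like cells Csf1r stood at 1869 CPM in the mutant and 2355 CPM in the control library. The labels do not give the deleted part of Csf1r, and a 3′ read outside it does not check the deletion.

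The 6 genes fell into different cell classes, in the same way in both libraries except for Siglece, whose order between BAM-like and microglia-like cells differed by library. Siglec1 was a BAM gene here: 144 CPM (122 to 170) in mutant and 64.1 CPM (55.8 to 73.2) in control BAM-like cells, against 0.712 and 0.554 CPM in microglia-like cells of the mutant and control libraries. Siglech was a microglial gene, at 499 CPM (491 to 507) in mutant and 515 CPM (507 to 523) in control microglia-like cells, and 52.4 and 57.6 CPM in BAM-like cells. Siglecf and Cd33 also stood highest in microglia-like cells among the 5 classes with at least 50 cells in each library, and Cd22 stood highest in BAM-like cells.

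**Figure D1:**
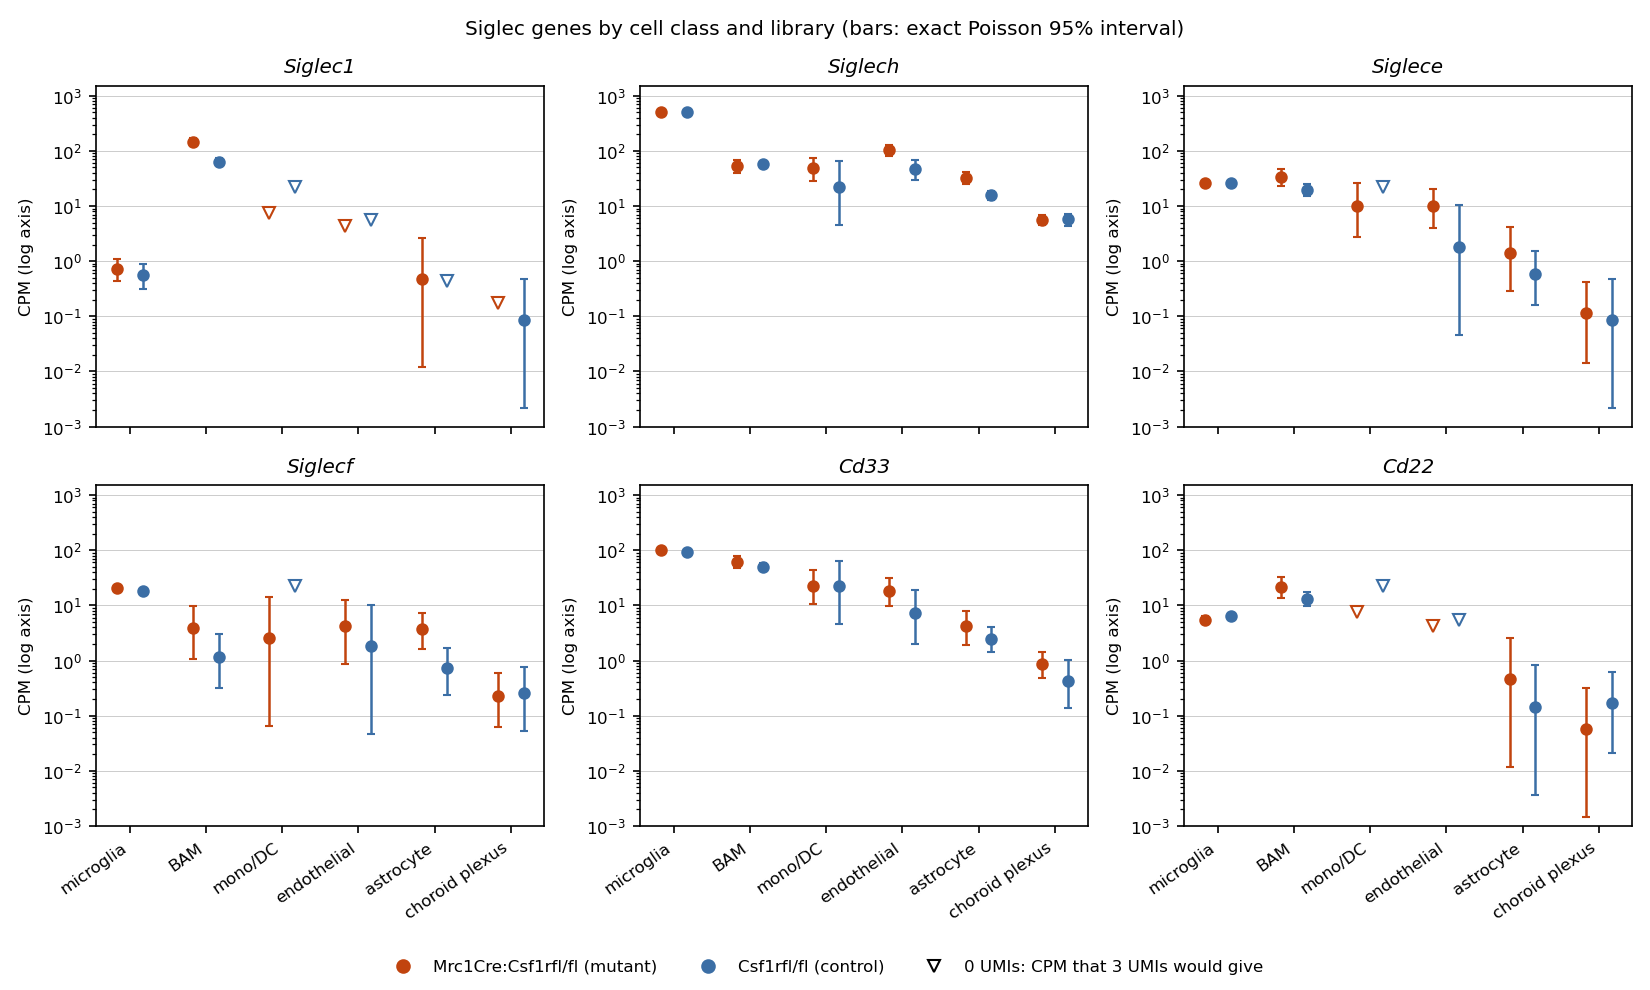
CPM of each Siglec gene (log axis) in 6 cell classes, mutant left and control right within each class, with exact Poisson 95% intervals and open triangles, where no UMI was found, at the CPM that 3 UMIs would give. Siglec1 sits at 144 and 64.1 CPM in BAM-like cells and under 1 CPM in microglia-like cells, and Siglech at 499 and 515 CPM in microglia-like cells.

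Siglece was found in both macrophage classes. It stood at 33.0 CPM in mutant BAM-like and 26.5 CPM in mutant microglia-like cells, and at 19.4 CPM in control BAM-like and 26.6 CPM in control microglia-like cells. Its order between the classes thus differed by library, with overlapping intervals in the mutant library (22.8 to 46.1 and 24.6 to 28.5) and with the BAM-like interval in the control ending at 24.7, just under the start of the microglia-like one at 24.8. Siglecf stood at 20.7 and 18.4 CPM in microglia-like cells of the mutant and control libraries, and only 4 UMIs were found in the BAM-like cells of each library. Of 6 eosinophil markers, Prg2, Prg3, Ear1 and Il5ra were at 0 in the BAM-like cells of both libraries and Epx in those of the mutant library, and the list summed to 5.82 CPM in mutant and 4.996 CPM in control BAM-like cells. The intervals of Siglecf in BAM-like, endothelial-like and astrocyte-like cells overlapped each other in both libraries.

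Detection followed the levels. Siglech was detected in 90.4% (89.3 to 91.4) of the mutant microglia-like cells and 92.3% (91.3 to 93.3) of the control ones, and Cd33 in 54.4% and 55.1%. In choroid plexus epithelium-like cells, which are not known to express Siglecs and were deeper at medians of 14683 and 17028 UMIs against 8558 and 8648 in microglia-like cells, Siglech had a UMI in 75 of 1071 mutant cells and in 49 of 630 control cells (7.78%). The same background share was 0.934% and 0.635% for Cd33, 0.374% and 0.476% for Siglecf, and under 0.4% in both libraries for Siglece and Cd22. For Siglec1 it was 0 of 1071 mutant cells, which allows a share of up to 0.280% (3 cells), and 0.159% of control cells. Siglec1 in microglia-like cells, at 0.646% (0.389 to 1.01) of mutant and 0.485% (0.266 to 0.813) of control cells, lay above that share in the mutant library, while in the control library the intervals overlapped.

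Cells of the BAM-like class held more Siglec1 RNA in the mutant library. The 105 mutant BAM-like cells held 149 Siglec1 UMIs and the 296 control BAM-like cells 218. The ratio of the CPM values, mutant over control, was 2.26 (1.82 to 2.79). The share of cells with a Siglec1 UMI was 57.1% (47.1 to 66.8) in mutant and 34.5% (29.1 to 40.2) in control BAM-like cells, at median depths of 7918 and 7603 UMIs. With each cell thinned to 2000 UMIs it was 22.3% in the mutant and 10.8% in the control library. Both the level and the share were thus higher in the mutant library at matched depth.

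The difference was spread over many cells. Cells without a Siglec1 UMI made up 42.9% of mutant and 65.5% of control BAM-like cells, and 5 or more UMIs in 5.71% and 3.38%. The highest cell held 11 UMIs in each library, and it carried 7.38% of the mutant and 5.05% of the control Siglec1 UMIs. The class boundary mattered for the size of this ratio. With clusters drawn at the lower resolution of 0.5, which ended with 202 mutant and 398 control cells in the BAM-like class, Siglec1 stood at 70.5 CPM in the mutant and 53.6 CPM in the control library, a ratio of 1.32. That wider class took in the 105 and 296 cells above together with cells led by MHC class II genes, where Siglec1 stood at 15.6 CPM in the mutant and 30.3 CPM in the control library, and monocyte or dendritic cell-like cells, which held no Siglec1 UMI in either library.

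**Figure D2:**
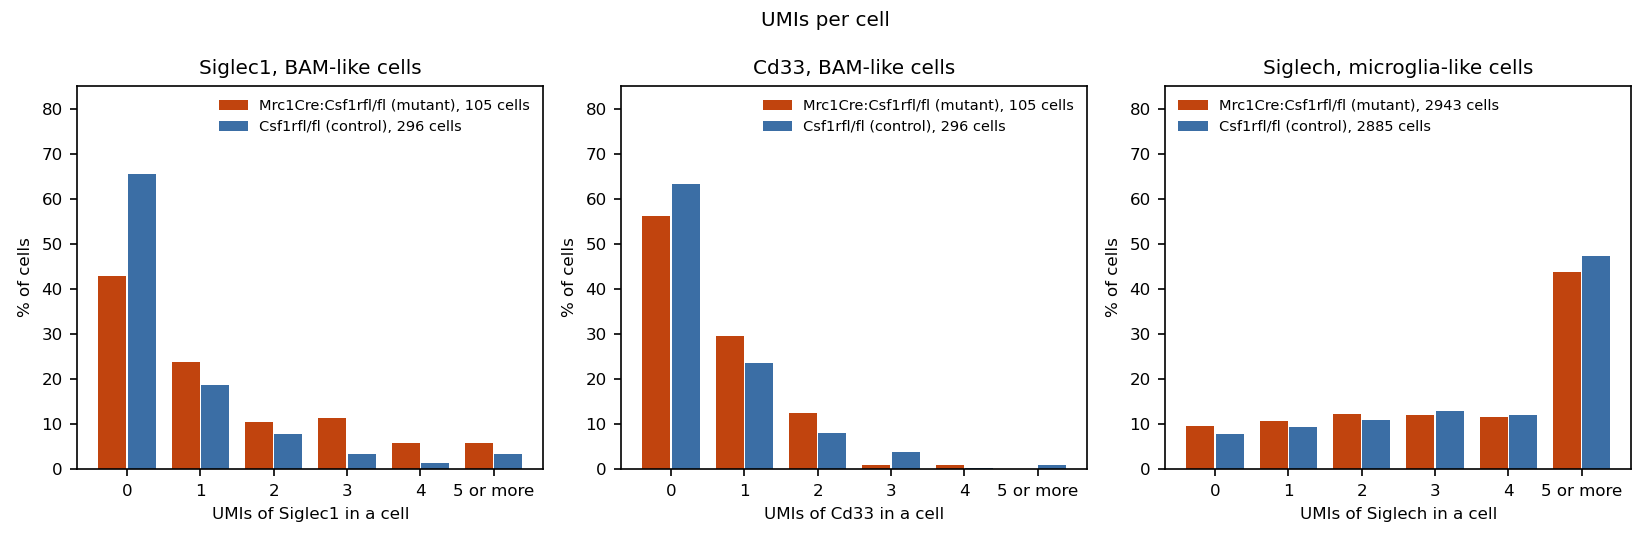
Share of cells (y axis, percent) by the number of UMIs of a gene in the cell (x axis), for Siglec1 and Cd33 in BAM-like cells and Siglech in microglia-like cells, mutant left and control right in each pair of bars. For Siglec1, 42.9% of mutant and 65.5% of control BAM-like cells held no UMI, while the distributions of Siglech were close in shape, with 43.8% and 47.4% of cells at 5 or more.

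Siglece, the inhibitory receptor, was also higher in mutant BAM-like cells. With 34 UMIs in the mutant and 66 in the control library, its ratio was 1.70 (1.09 to 2.61), and it was detected in 25 mutant cells (23.8%) and 45 control cells (15.2%). Cd22 stood at 21.3 CPM (13.4 to 32.3) in mutant and 13.2 CPM (9.65 to 17.7) in control BAM-like cells, from 22 and 45 UMIs, and its ratio of 1.61 (0.922 to 2.74) had an interval that included 1. Cd22 passed 1.5-fold under 4 of the 11 other settings in which it was measured, with ratios of 1.09 to 1.93, so its call rests on the setting. Cd79a, Ms4a1, Pax5 and Fcmr, which define B cells, were at 0 in mutant BAM-like cells, and none of these 4 was at 0 in control BAM-like cells. The 7 B cell markers summed to 221 CPM in mutant and 192 CPM in control BAM-like cells.

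Cd33 and Siglech did not differ beyond counting error in BAM-like cells. Cd33 stood at 62.1 CPM (47.8 to 79.2) in the mutant and 50.3 CPM (43.0 to 58.4) in the control library, a ratio of 1.23 (0.912 to 1.66). Siglech had a ratio of 0.909 (0.660 to 1.23) and was detected in 23.8% of the mutant and 26.0% of the control BAM-like cells. Past 1.5-fold in either direction, 3 of the 5 members with at least 50 UMIs in the class were higher (Siglec1, Siglece and Cd22), none was lower and 2 were neither, and Siglecf was not measured. The calls depended on how finely the cells were clustered: at resolution 0.5 no member passed (Siglec1 1.32, Siglece 1.16, Cd22 1.09), and at resolution 2 Siglec1 (2.25) and Siglece (1.78) were higher, Siglech was lower (0.655) and Cd22 did not pass (1.47). Of the 8190 genes measured in BAM-like cells, 4.81% were higher and 5.85% lower past that fold, and 10.7% either. The median log2 ratio was 0.69 over the 5 members and 0.01 over all genes measured.

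**Figure D3:**
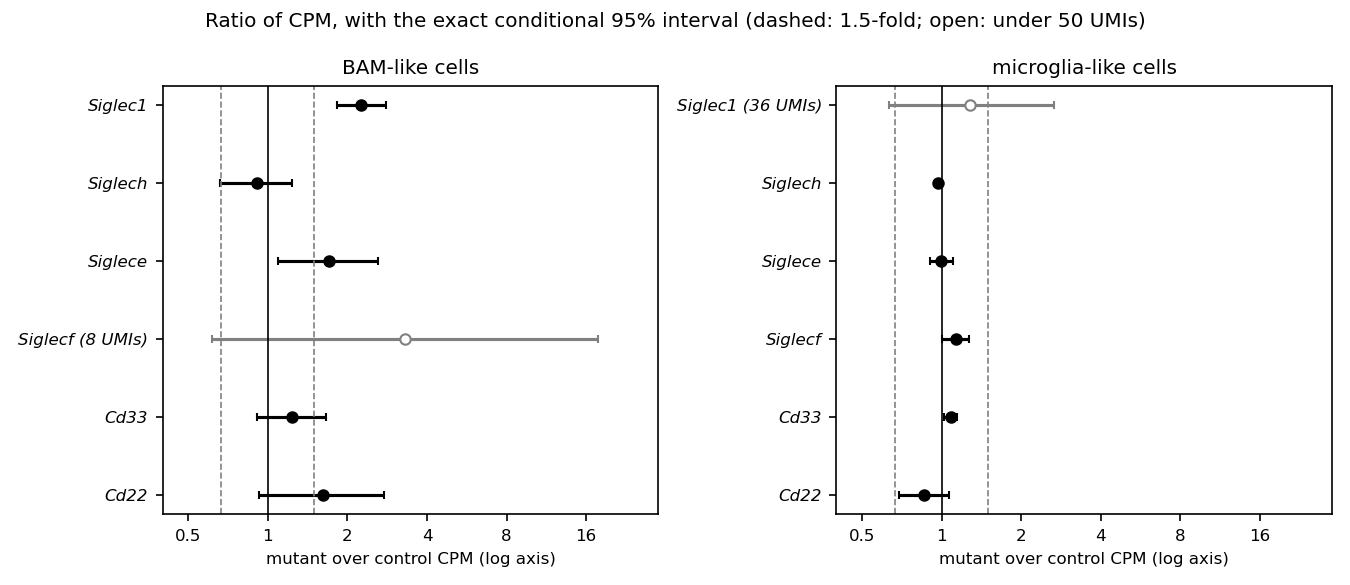
Mutant over control ratio of CPM (log axis) for each Siglec gene in BAM-like (left) and microglia-like cells (right), with exact conditional 95% intervals, dashed lines at 1.5-fold and open points for genes under 50 UMIs. In BAM-like cells Siglec1 (2.26) and Siglece (1.70) have intervals above 1, and in microglia-like cells every measured member lies within 1.5-fold.

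Other features of the BAM-like cells differed between the libraries beside the Siglecs. Cd163, a scavenger receptor of BAMs, stood at 248 CPM in the mutant and 576 CPM in the control library, and Folr2, the folate receptor of resident macrophages, at 917 and 443 CPM. The 10 microglial markers summed to 4376 CPM in mutant and 5258 CPM in control BAM-like cells, with all 10 detected in each. Of the 13 monocyte or dendritic cell markers, 8 were detected in the mutant and 10 in the control library, summing to 235 and 290 CPM. Chil3, Flt3, Xcr1, Clec9a and Cd209a were at 0 in the mutant and Ly6c2, Plac8 and Ccr7 in the control library. Mitochondrial UMIs made up 4.50% and 4.80%. The part of these differences in the Siglec values was not tested.

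Of 6 measured MHC class II genes, which present antigen and mark a subset of border macrophages, 4 were higher past 1.5-fold in mutant BAM-like cells. This stands beside 4.81% of the 8190 genes measured in the class that were higher. Cells with much RNA of the MHC class II list made up a larger share of BAM-like cells in the mutant library. Cells above 2000 CPM of these genes, a limit chosen after the data were seen, numbered 26 in the mutant (24.8% of BAM-like cells) and 25 in the control library (8.45%). The CPM of Siglec1 was higher in the mutant library on both sides of that limit, but the cells above it differed in depth. Their medians were 8540.5 UMIs in the mutant and 27016 in the control library, against 7852 and 7239 up to the limit. Above the limit, Siglec1 stood at 129 CPM in the mutant and 57.5 CPM in the control library, a ratio of 2.24 (1.40 to 3.56). Detection of Siglec1 there was close, at 53.8% (mutant) and 56% (control), without matching for depth. Up to the limit, Siglec1 stood at 150 and 65.9 CPM, a ratio of 2.28 (1.78 to 2.91), with shares of 58.2% and 32.5%. The part of depth in the values above the limit was not tested. Up to the limit Siglece stood at 39.9 CPM in the mutant and 17.0 CPM in the control library (ratio 2.36, 1.43 to 3.82), and above it 4 mutant and 21 control UMIs gave 14.3 and 28.1 CPM (0.509, 0.127 to 1.51). Cd22 up to the limit stood at 24.0 CPM in the mutant and 12.4 CPM in the control library (1.93, 1.02 to 3.52), and above it 4 and 12 UMIs gave a ratio of 0.890 (0.209 to 2.94). Cd33 had ratios of 1.38 (0.983 to 1.90) up to the limit and 0.839 (0.385 to 1.69) above it. For Siglece, Cd22 and Cd33 the intervals of the ratio on the 2 sides overlapped, and the difference between the sides was not tested.

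Mutant BAM-like cells with a Siglec1 UMI and those without it were deeper and shallower cells, with medians of 9319 and 6187 UMIs, and the same held in the control library at 10405.5 and 6762. Folr2 stood at 999.8 CPM in the mutant and 502 CPM in the control cells with a Siglec1 UMI, and at 723 and 376 CPM in those without. Mrc1 was found in every BAM-like cell of either kind in both libraries. Since Siglec1 itself split the cells, these values are a description.

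In microglia-like cells each of the 5 measured members lay within 1.5-fold between the libraries. Siglech, from 14020 mutant and 14864 control UMIs, had a ratio of 0.969 (0.947 to 0.992), a difference beyond counting error and far inside 1.5-fold. Cd33, at 99.3 CPM (95.7 to 103) in the mutant and 91.9 CPM (88.4 to 95.4) in the control library, had a ratio of 1.08 (1.03 to 1.14). Siglecf had a ratio of 1.13 with an interval that began just above 1 and ended at 1.27, with a UMI in 15.3% of mutant and 14.2% of control cells. Siglece stood at 26.5 and 26.6 CPM, a ratio of 0.997 (0.900 to 1.10), and was detected in 20.2% of the mutant and 21.7% of the control cells. Cd22 stood at 5.41 CPM (4.58 to 6.34) in the mutant and 6.30 CPM (5.42 to 7.29) in the control library, a ratio of 0.858 (0.687 to 1.07). None of the 5 measured members passed 1.5-fold, beside 1.77% of the 12259 genes measured in microglia-like cells that were higher and 4.91% that were lower past it, 6.68% in all. The median log2 ratio was -0.00 over the 5 members and -0.03 over all genes measured.

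Single microglia-like cells held several family members together. The median cell held UMIs of 2 of the 6 genes in both libraries, and 22.9% of mutant and 24.2% of control microglia-like cells held 3 or more. BAM-like cells held a median of 1 member, and 23.8% of mutant and 15.5% of control cells held 3 or more. In choroid plexus epithelium-like cells 91.7% of mutant and 91.3% of control cells held none. The Siglech content of a microglia-like cell ranged up to 31 UMIs in the mutant and 52 in the control library, with a median of 4 in each.

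The 5 microglia-like clusters differed in their Siglecs, and 3 of them were shared evenly between the libraries. Cluster 5, with 401 mutant and 388 control cells and led by the chemokine genes Ccl4 and Ccl3 and the lectin gene Clec7a, had lower Siglech than the largest cluster 2, at 421 CPM in mutant and 431 CPM in control cells of cluster 5, beside 542 and 556 CPM in cluster 2. The opposite held for Siglecf, at 31.2 CPM (26.6 to 36.4) in mutant and 28.3 CPM (23.9 to 33.3) in control cells of cluster 5 and 18.0 and 16.7 CPM in cluster 2. Cd22 in cluster 5 stood at 10.9 CPM (8.26 to 14.1) in the mutant and 9.43 CPM (6.95 to 12.5) in the control library, beside 4.45 and 5.69 CPM in cluster 2. So the cluster with the highest Siglecf and Cd22 levels held less Siglech than cluster 2, in both libraries. Low Siglech was not particular to it, as mutant cells of cluster 4 held Siglech at 417 CPM and Siglecf at 10.5 CPM. The clusters were built from these cells' own genes, without the Siglecs among the genes used, and these levels are a description with no test.

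Cluster 8, led by the interferon-induced genes Ifit2 and Ifit3, had 220 mutant and 225 control cells and held most of the few Siglec1 UMIs of control microglia-like cells, 10 of 16, and 6 of 20 in the mutant library. Its Siglec1 level was 2.50 CPM (0.916 to 5.43) in mutant and 3.56 CPM (1.71 to 6.55) in control cells, and between 0 and 0.766 CPM in the other 4 clusters of either library. Siglec1 is known to be induced by type I interferon. Cd33 and Siglece varied little, between 84.7 and 107 CPM and between 22.0 and 28.8 CPM over all clusters and both libraries.

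Clusters 3 and 4 were uneven, with 1028 mutant and 216 control cells in cluster 3 and 199 mutant and 895 control cells in cluster 4. Siglecf stood at 19.3 CPM in mutant and 11.1 CPM in control cells of cluster 3, and at 10.5 and 17.7 CPM in cluster 4, so it was higher in each cluster in the library that filled it. Across the 5 clusters, Siglech was lower in the mutant library in 5 of 5 and Cd33 was higher in 5 of 5. The directions of the other measured members were mixed, with Siglecf higher in 4 and Siglece and Cd22 each higher in 2. Clusters of the same 2 libraries are not replicates. The interval of the Siglech ratio excluded 1 only in cluster 4 (0.827, 0.763 to 0.895). That of Cd33 excluded 1 only in cluster 5, where it began just above 1. With equal weight for each cluster, Siglech averaged 483 CPM in the mutant and 512 CPM in the control library, a ratio of 0.945, and Cd33 averaged 101 and 92.0 CPM, a ratio of 1.09. An unnamed cluster led by Prl, Syt1 and Snap25, with 10 microglial markers, went the other way for Siglech, at a ratio of 1.29 (1.17 to 1.43). Cd33 had a ratio of 1.38 (1.09 to 1.76) there.

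**Figure D4:**
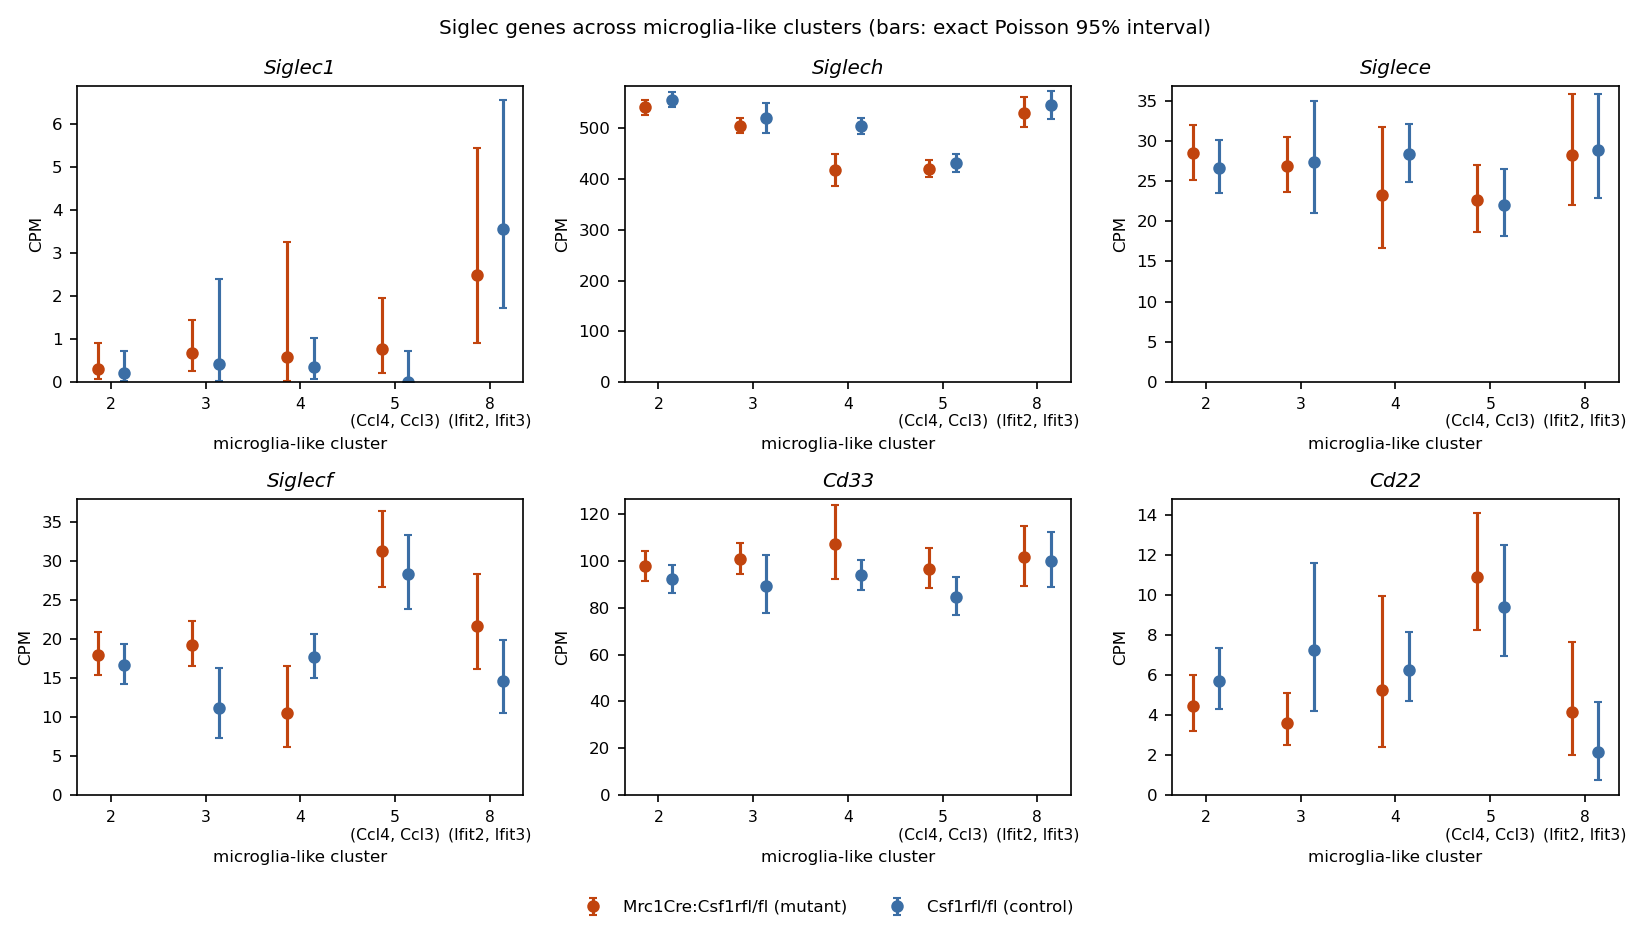
CPM of each Siglec gene in the 5 microglia-like clusters, mutant left and control right, with exact Poisson 95% intervals. Siglecf and Cd22 stand highest in cluster 5 (31.2 and 28.3 CPM for Siglecf), where Siglech is at 421 and 431 CPM, and Siglec1 stands highest in cluster 8 (2.50 and 3.56 CPM).

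Siglech RNA was also found outside microglia, and it was higher in endothelial-like and astrocyte-like cells of the mutant library. Its endothelial-like level was 102 CPM (79.8 to 128) in the mutant and 46.0 CPM (29.8 to 68.0) in the control library, a ratio of 2.22 (1.39 to 3.65). Its astrocyte-like level was 32.2 CPM (25.1 to 40.8) in the mutant and 15.5 CPM (12.7 to 18.8) in the control library, 2.08 times as high (1.51 to 2.84). It was the single member measured in each of these classes and passed 1.5-fold in both, beside 7.05% of genes higher past that fold in endothelial-like and 6.73% in astrocyte-like cells. As a share of its microglia-like level, Siglech in endothelial-like cells was 20.4% in the mutant and 8.94% in the control library, beside medians of 24.1% and 14.2% and lowest values of 20.4% and 13.2% for the 10 microglial markers. In astrocyte-like cells these shares were 6.46% and 3.02% for Siglech and 6.84% and 4.16% for the markers. All 10 markers were higher in mutant endothelial-like cells, with ratios of 1.06 to 1.89, and 9 of 10 in mutant astrocyte-like cells, with ratios of 0.910 (Sall1) to 1.96. The Siglech ratio lay above that of each marker in both classes, but its interval began under the highest marker ratio in each. The macrophage genes C1qa, C1qb, Ctss and Tyrobp were also higher in both mutant classes. Tyrobp stood at 597 CPM in mutant and 284 CPM in control endothelial-like cells, and at 182 and 116 CPM in astrocyte-like cells. The markers summed to 6881 CPM in mutant and 5001 CPM in control endothelial-like cells, of which Sparc alone gave 1887 and 1779 CPM. Without Sparc the sums were 4994 CPM in the mutant and 3222 CPM in the control library, a ratio of 1.55. In astrocyte-like cells the sums without Sparc were 1416 and 976 CPM, a ratio of 1.45.

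In BAM-like cells Siglech stood at 10.5% of its microglia-like level in the mutant and 11.2% in the control library, within the range of the 10 microglial markers there, which ran from 4.77% (Sparc) to 72.8% (Fcrls) in the mutant and from 8.37% (Sparc) to 84.5% (Fcrls) in the control library. Its level in choroid plexus epithelium-like cells was 5.61 CPM in the mutant and 5.69 CPM in the control library, 1.12% and 1.11% of the microglia-like level. Erythroid-like cells, 28 in the mutant and 15 in the control library, held Siglech at 102 CPM (78.4 to 130) and 150 CPM (111 to 199). How much of the Siglech RNA outside microglia came from free RNA or from droplets with more than 1 cell was not tested.

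**Figure D5:**
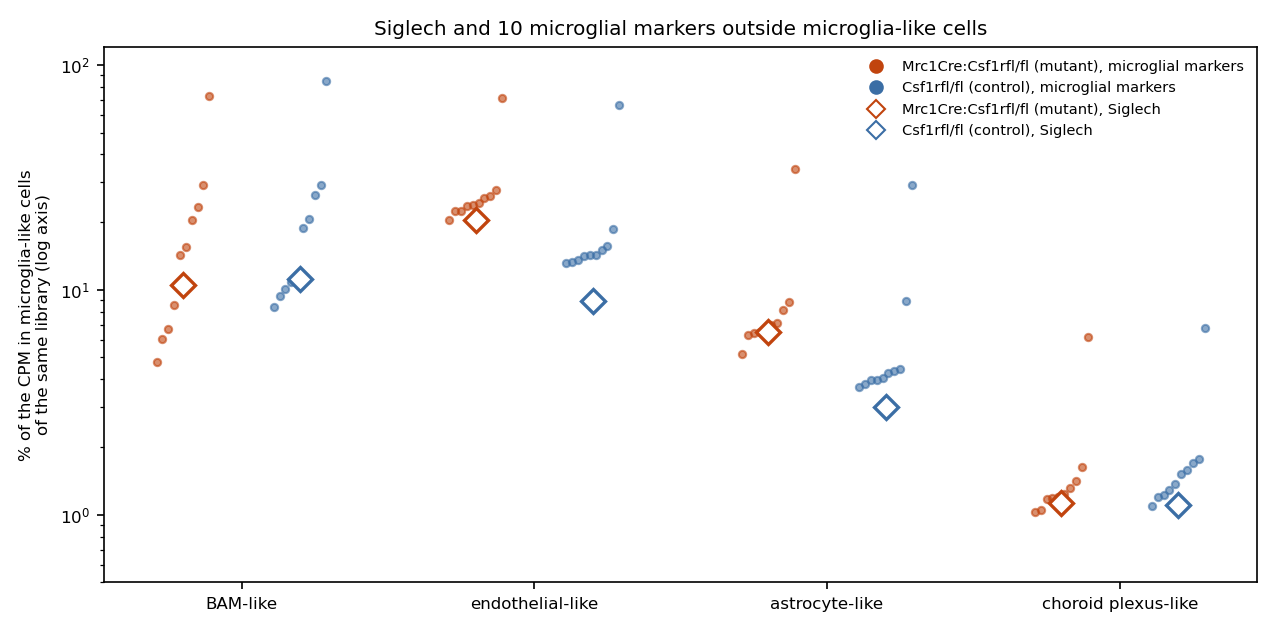
Level of Siglech (diamonds) and of 10 microglial markers (small points) in 4 other classes, as a percent of the CPM in microglia-like cells of the same library (log axis), mutant left and control right. Siglech lies near or under the markers in each class, at 20.4% and 8.94% in endothelial-like cells and 1.12% and 1.11% in choroid plexus epithelium-like cells.

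Blood-derived cells were few. The monocyte or dendritic cell-like class held 32 mutant and 14 control cells, and no UMI of Siglec1 or Cd22 was found in it, which allows up to 7.59 CPM in the mutant and 22.1 CPM in the control library for each gene (3 UMIs). Siglech gave 19 UMIs in 5 mutant cells and 3 UMIs in 1 control cell, 48.1 and 22.1 CPM. The 5 markers of plasmacytoid dendritic cells, which are known to express Siglech, summed to 380 CPM in the mutant and 7.37 CPM in the control cells of that class. Cd33 stood at 22.8 CPM (10.4 to 43.2) in the mutant and 22.1 CPM (4.56 to 64.6) in the control library. Siglece gave 4 UMIs in mutant and none in control cells, and Siglecf 1 and none. Among B cell-like cells, Cd22 gave 5 UMIs in 3 of 7 mutant cells, 78.6 CPM (25.5 to 183), and none in 3 control cells, where 3 UMIs would be 240.04 CPM.

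Unnamed cells held Siglec RNA too. The sub-clusters led by MHC class II genes, with 52 mutant and 80 control cells, held Siglec1 at 15.3 CPM in the mutant and 30.98 CPM in the control library and Siglech at 156 and 238 CPM. Both lay between the BAM-like and microglia-like levels of the same library. Some of these cells resembled BAMs by markers, so the BAM-like class may not hold all border macrophages. A sub-cluster of 11 mutant and 8 control cells met the marker limits for 9 BAM and 2 microglial markers. It gave 1 Siglec1 UMI in the mutant and 3 in the control library (ratio 0.354, 0.00674 to 4.41). Another, with 5 BAM and 3 microglial markers, gave 3 and 5 UMIs (0.811, 0.126 to 4.17). A shallow unnamed cluster of 589 mutant and 455 control cells, with a median of 2533 UMIs over both libraries, met the marker limits for 9 microglial markers. It held Cd33 at 155 CPM (137 to 173) in the mutant and 102 CPM (85.5 to 120) in the control library. The Cd33 ratio of 1.52 (1.24 to 1.87) was past 1.5-fold, unlike that in microglia-like cells. Siglech stood at 289 and 306 CPM in this cluster. Siglech passed 1.5-fold in both directions among unnamed clusters. It stood at 17.9 CPM in the mutant and 38.3 CPM in the control library in a cluster led by Slc47a1 (0.467, 0.339 to 0.648). In a cluster led by Rgs5, with pericyte and microglial markers and 28 mutant and 17 control cells, it stood at 380 and 114 CPM (3.33, 1.90 to 6.19).

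Of the other Siglec genes, Mag, which binds myelin to the axon surface and is made by oligodendrocytes, stood at 2182 CPM in mutant and 2346 CPM in control oligodendrocyte-like cells. Mag was also found in microglia-like cells, at 24.7 CPM (22.9 to 26.6) in the mutant and 26.4 CPM (24.5 to 28.3) in the control library. Mag lies on the same strand as Cd22, with a gap of 18.833 kb between the 2 genes, and no Cd22 UMI was found in oligodendrocyte-like cells. Siglecg, an inhibitory Siglec known from B cells, stood at 4.16 CPM (3.44 to 4.99) in mutant and 5.40 CPM (4.59 to 6.32) in control microglia-like cells, and gave 12 and 7 UMIs in the B cell-like cells.

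Of the partners that carry Siglec signals, none of the 9 measured passed 1.5-fold in BAM-like or in microglia-like cells, beside 10.7% and 6.68% of all genes measured there, with median log2 ratios of -0.01 and 0.03. Tyrobp, which encodes the adaptor of Siglech, stood at 2817 CPM in mutant and 2658 CPM in control microglia-like cells, a ratio of 1.06 (1.05 to 1.07). In BAM-like cells Lyn, a kinase that phosphorylates the inhibitory motifs, had the ratio farthest from 1, at 664 CPM in the mutant and 545 CPM in the control library (1.22, 1.11 to 1.33).

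Genes that make or remove the ligand were read beside the same shares of all genes past 1.5-fold, 10.7% in BAM-like and 6.68% in microglia-like cells. Of 7 measured genes of sialic acid synthesis, 1 was higher in mutant BAM-like cells: Cmah, whose enzyme turns the acetyl form of sialic acid into the glycolyl form that several mouse Siglecs prefer. Cmah stood at 226 CPM in mutant and 137 CPM in control BAM-like cells, a ratio of 1.65 (1.41 to 1.94), and gave 7 and 3 UMIs in microglia-like cells. Of 10 measured sialyltransferases in BAM-like cells, St3gal2 was higher (ratio 1.51, 0.854 to 2.58) and St3gal5 lower (0.542, 0.268 to 1.01), each with an interval that included 1. In microglia-like cells 1 of 13 was past 1.5-fold, St8sia6, which adds a further sialic acid to an existing one, at 12.7 CPM in the mutant and 20.3 CPM in the control library, a ratio of 0.625 (0.547 to 0.715). No measured sialidase or sialic acid removal gene passed 1.5-fold in BAM-like (4 measured) or microglia-like cells (5 measured), nor did a measured sialoglycan carrier (2 and 3 measured).

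Interferon-response and MHC class II genes were set beside the Siglecs because Siglec1 is known to follow interferon. In BAM-like cells 3 of 14 interferon-response genes were higher in the mutant library and none lower: Rsad2 (86.3 CPM in the mutant and 37.6 CPM in the control library, ratio 2.29), Ifit1 (1.86) and Ifit2 (1.77), with a median log2 ratio of 0.30 over the list, beside 4.81% of all genes measured that were higher and 5.85% that were lower. Of 6 measured MHC class II genes, 4 were higher, led by Cd74 at 1359 CPM in the mutant and 702 CPM in the control library (1.94, 1.81 to 2.07), with a list median of 0.74. In microglia-like cells none of the 14 interferon-response or 6 MHC class II genes passed 1.5-fold, beside 6.68% of all genes measured.

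The genes whose levels followed each member most closely over 5 classes and 2 libraries, 10 profiles in all, were taken by Pearson's r of log2(CPM + 1) among 13363 genes. Since those profiles share libraries and few classes, r is a description and no test. For Siglec1 these were Ccl7 (r = 0.998), Wfdc17, Clec12a, Pla2g2d and Emilin2. For Siglech they included Edem2 (0.998), Rasal3, Olfml3 and Havcr2, of which Olfml3 was in the microglial marker list. For Siglece they were Naip6 (0.996), Arl11, Neurl3, Ighm and Naip5, and for Cd33 Naip5 (0.996), Bcl2a1b, Arhgap45, Irf8 and Limd2, so that Naip5 was near both. For Siglecf they were Slc16a3 (0.979), Zfyve28, Cst7, Plxdc1 and Syngr1, and for Cd22 Ctsb (0.989), Ccr3, Scimp, Gm37747 and Trip13.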

How the data were processed

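The 2 libraries are single-cell 3′ libraries of sorted brain cells on the 10x platform, per the labels' protocols, and the deposited matrices hold raw UMI counts, written by Cell Ranger 7.1.0 per the file headers. The submitters' processing notes name the builds GRCm38.p6 and mm10. How introns were counted, how cells were called and whether free RNA was corrected for is not given in the sources used here. Of the 26033 gene identifiers, 25637 matched the GENCODE annotation of GRCm38.

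The filters, 500 genes or more and no more than 10% of UMIs from mitochondrial genes, alone left 6294 mutant and 5742 control barcodes. Scrublet in scanpy 1.11.5, run on all barcodes of a library at an expected rate of 0.008 per 1000 barcodes, marked 2.52% of mutant and 2.62% of control barcodes, and these were removed. Counts scaled to 10000 per cell were reduced to 2000 variable genes, without Siglec, sex-linked or mitochondrial genes, and 30 components, and 24 clusters came from the Leiden method (15 neighbours, resolution 1). A name was given where at least 3 markers of a type were found in 25% of a cluster's cells or more, at 25% or more of the highest cluster's CPM. A cluster stayed unnamed where a second type competed in its number of markers or had more markers among the 10 leading genes. Shallow clusters and sub-clusters also needed an own marker among those 10 genes. Clusters left unnamed included that led by Prl, Syt1 and Snap25, with 10 microglial markers, and a shallow cluster with 9. An unnamed cluster with at least 3 monocyte or dendritic cell markers was split into 9 sub-clusters, a step added after the data were seen. No deposited cell annotation was used, so classes can differ from those of the study. Unnamed cells numbered 1281 in the mutant and 809 in the control library.

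Levels are class sums of UMIs for each library, given as CPM with exact Poisson intervals, shares with Clopper-Pearson intervals, and ratios with the exact conditional interval of a pair of Poisson counts, each at 95%. Genes counted as measured in a class with 50 UMIs or more, both libraries together, and past the fold means a ratio of at least 1.5 or at most its inverse. The ratio and its interval were tested on simulated data. Genes named beside the members are those of the lists whose ratio was farthest from 1, up to 4 per list and class, the 5 most like each member by correlation, and cell type markers, some of which are not reported here; Cmah in microglia-like cells and the comparison genes of the Siglec1 split were chosen after their values were seen. Members and lists were chosen with earlier results of these data known. Alternatives changed the filters, the doublet calls, the clustering, the gate, the scaling and the minimum count.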

Additional observations from a re-analysis of the deposited data

How the results depend on the processing

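Siglec1 was higher in mutant BAM-like cells under all 12 alternatives tried, with ratios of 1.32 to 2.28 beside 2.26. It was 1.32 at the clustering resolution of 0.5, where 0 members passed 1.5-fold in place of 3, and 1.73 with each library clustered alone, where 141 mutant and 298 control cells were BAM-like and the added cells were mostly led by MHC class II genes. The count of members past 1.5-fold in BAM-like cells was 2 to 4 under the other 13. Siglece passed 1.5-fold in 11 of 12 settings (1.16 to 2.36), Cd33 in none of 12 (1.02 to 1.39), and Siglech in 1 of 12, on the lower side, at resolution 2 (0.655 to 1.32 over all). In microglia-like cells the Siglech ratio of 0.969 was 0.992 with trimmed-mean scaling between the libraries and 0.939 as a mean over cells. The count of members past 1.5-fold there was 0 in all settings but a gate on each cell's own markers, where it was 1: Siglec1, measured there at a ratio of 0.607; the cause was not tested. Restricting BAM-like cells to those with up to 2000 CPM of MHC class II genes was chosen after seeing the data. No paired analysis was possible because each genotype had 1 library. Replicates could not be left out for the same reason, and depth limits the monocyte or dendritic cell-like and B cell-like values and Siglecf in BAM-like cells, where a difference was not detectable at this depth.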
